A study of Callithrix jacchus with 4 samples.

Results

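The genes described here are 6 metabotropic glutamate receptors (GRM2, GRM3, GRM4, GRM5, GRM7 and GRM8) and the 3 HOMER scaffolds (HOMER1, HOMER2 and HOMER3), 9 genes of the 35205 counted. They were chosen by name, for their place in the mGluR theory of fragile X, with earlier results of these data known. Of the 9, 8 were found under their symbol. GRM2 was found under LOC100413741, whose number is the gene ID of GRM2 in RefSeq. The other receptors of the family were not analysed here.

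RNA was sequenced from forebrain of common marmosets (Callithrix jacchus), a small New World monkey, at postnatal day 5. There were 2 libraries from FMR1 mutant animals, whose mutation was made with CRISPR/Cas9, and 2 from wild-type animals. The labels give the tissue of each library only as brain, and the design names cortex, striatum and hippocampus among the forebrain samples. They do not give the allele, whether it is carried by every cell, the sex, or whether the libraries of a group come from separate animals, so the p-values rest on the spread between samples, which may be technical.

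Metabotropic glutamate receptors are G protein-coupled receptors that tune synapses more slowly than the glutamate-gated channels. Group I receptors, such as GRM5, sit mostly beside the postsynaptic density and act through Gq, phospholipase C and calcium release. Group II (GRM2 and GRM3) and group III (GRM4, GRM7 and GRM8) act through Gi/o, lower cyclic AMP and mostly restrain transmitter release. HOMER proteins bind group I receptors and tie them to SHANK scaffolds and to calcium-release channels. FMRP, the protein made from FMR1, represses the translation of many synaptic mRNAs. In the mGluR theory, protein synthesis that group I receptors trigger runs unchecked where FMRP is missing. In Fmr1 knockout mice, the receptor made from Grm5 has been found less tightly bound to long HOMER forms. The theory concerns signalling and translation, and RNA counts measure neither.

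None of the 9 genes passed the test between mutant and wild-type libraries, at an adjusted p of 0.05 in the quasi-likelihood test of edgeR, adjusted by Benjamini-Hochberg over all 16956 genes tested. All 9 had passed the filter on low counts. Over all genes tested, 2.23% were called (0.661% higher and 1.57% lower in mutant libraries), so 0 of 9 is near the background. At an unadjusted p under 0.05, 2 of the 9 were called, both lower in mutant libraries (GRM2 and GRM4), against a background of 7.75% called lower, and 0 were called higher, against 5.64%. DESeq2 and limma-voom also called 0 of 9 after adjustment. Of the 9, 4 had a positive and 5 a negative log2 fold change (mutant over wild-type), with a median of -0.075, beside -0.004 over all genes tested. The libraries of the groups did not overlap for 4 of the 9 (44.4%), 2 lower and 2 higher in mutant libraries, beside 43.1% of all genes tested.

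**Figure D1:**
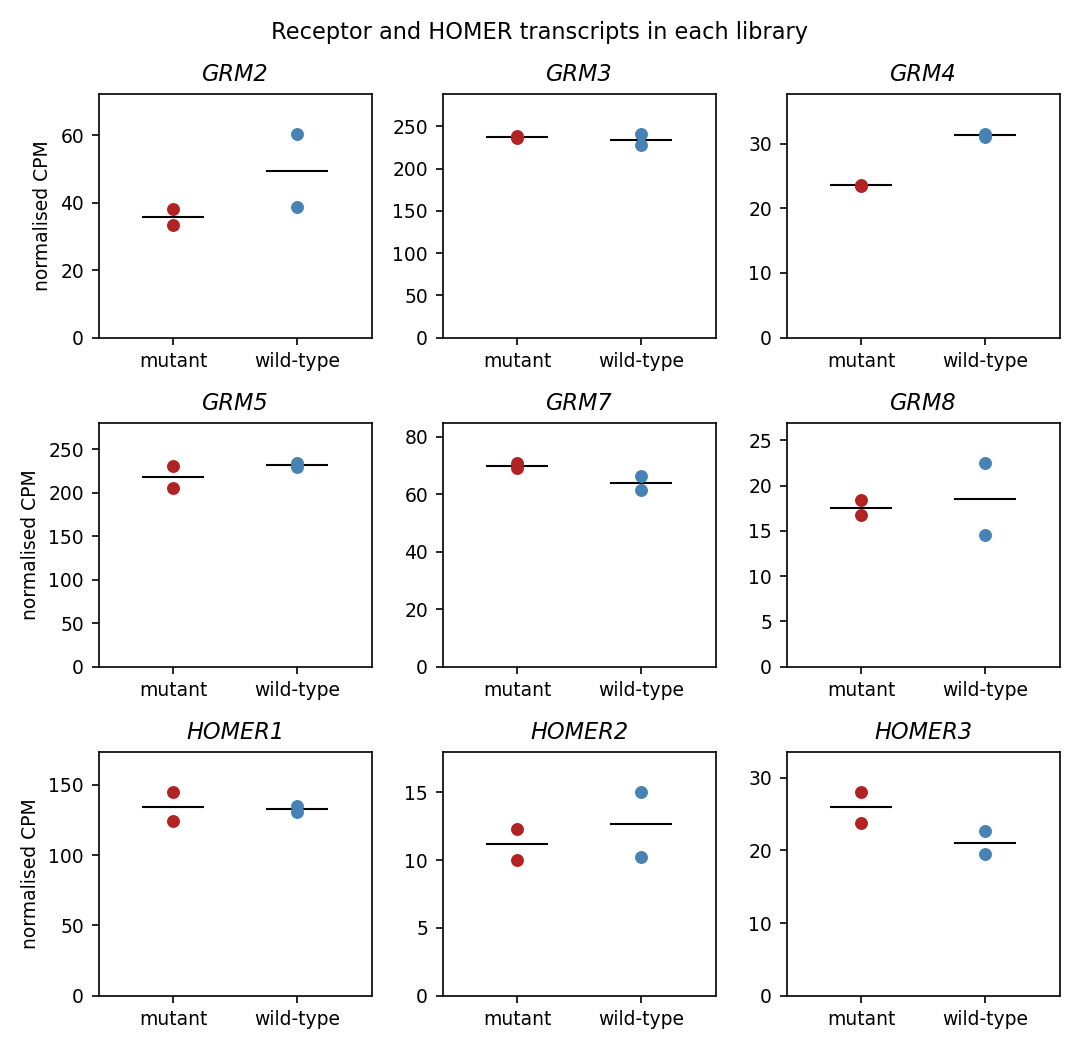
Normalised CPM (vertical axes, each starting at 0) of the 9 genes in the mutant (left) and wild-type (right) libraries, with each point a library and each bar the group mean. GRM4 forms 2 tight pairs near 23.5 and 31.3 CPM, while the wild-type libraries lie apart for GRM2, GRM8 and HOMER2.

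Total counts were 13153036 and 13455702 in mutant replicates 1 and 2, and 13256200 and 12331639 in wild-type replicates 1 and 2. FMR1 itself was counted 1062 and 1603 times in mutant and 1144 and 966 times in wild-type libraries, which overlap, and since a small mutation can leave the RNA level as it was, they do not check the genotype. Wild-type replicate 1 stands apart in its RNA of the thalamus: TCF7L2, a thalamic transcription factor, was counted 118 and 121 times in mutant replicates 1 and 2, and 1272 and 139 times in wild-type replicates 1 and 2. Results that moved most with that library, or with another, are also given without it. Abundance is given in CPM, which are counts scaled by library size and TMM. CPM takes no account of transcript length, so levels are compared between libraries and not between genes. In bulk tissue, fewer cells of a type and less RNA per cell cannot be told apart.

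GRM5, the Gq-coupled group I receptor on which the mGluR theory centres, had 205 and 231 CPM in mutant libraries, against 230 and 234 CPM in wild-type libraries. Mutant replicate 2 reached the level of the wild-type libraries and mutant replicate 1 lay below it. The log2 fold change was -0.09 (SE 0.12, 95% interval -0.32 to 0.15, adjusted p = 0.812 by edgeR). As a ratio, the interval runs from 0.799 to 1.11, so a change of the RNA beyond these bounds is outside it. Leaving out mutant replicate 1 gave -0.007, and leaving out mutant replicate 2 gave -0.17.

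Among group II receptors, GRM2, a mostly presynaptic receptor of neurons, was counted 500 and 448 times in mutant libraries and 513 and 740 times in wild-type libraries. This gave 38.2 and 33.2 CPM in mutant libraries and 38.7 and 60.3 CPM in wild-type libraries. Wild-type replicate 2 was far above the others, and wild-type replicate 1 lay within 1 CPM of mutant replicate 1. The group means were 35.7 ± 3.49 CPM in mutant and 49.5 ± 15.2 CPM in wild-type libraries (SD, n = 2 each), with a log2 fold change of -0.47 (SE 0.18, 95% interval -0.84 to -0.10, adjusted p = 0.22 by edgeR).

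The size of the GRM2 estimate depended on which wild-type library was used. Without wild-type replicate 1 the log2 fold change was -0.755, set against wild-type replicate 2 alone, the highest library for GRM2. Without wild-type replicate 2 the value was -0.11. With either mutant library left out it was -0.57 or -0.37. In each of these fits a lone library stood for its group. The test then had only the spread of the other group and of other genes. The estimate was negative in each of them. Among the alternatives that kept all 4 libraries, GRM2 passed only with no filter on low counts, narrowly, at an adjusted p of 0.0491 by edgeR.

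GRM3, a group II receptor of neurons and astrocytes, had 236 and 239 CPM in mutant libraries, against 228 and 241 CPM in wild-type libraries. The groups overlapped, and all 4 libraries lay close together. The log2 fold change was 0.02 (SE 0.11, 95% interval -0.21 to 0.25, adjusted p = 0.968 by edgeR). As a ratio, the interval runs from 0.864 to 1.19.

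Astrocyte markers were lower in the same mutant libraries, beside this level value of GRM3. Of the 8 markers tested, all had a negative log2 fold change, 2 fell and 0 rose past the threshold, and the median was -0.40. Over all genes tested, 8598 of 16956 were negative, 1.57% fell and 0.661% rose past the threshold, and the median was -0.004. SLC1A2, the main glutamate transporter of astrocytes, had 1178 and 1326 CPM in mutant and 1918 and 1896 CPM in wild-type libraries (log2 fold change -0.61, SE 0.11). Clusterin (CLU), a secreted chaperone, was the other that fell (-0.51, SE 0.11). The summed level of the 8 markers was 3507 and 3850 CPM in mutant libraries and 5000 and 4839 CPM in wild-type libraries. The part of this shift in the value of GRM3 was not tested.

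**Figure D2:**
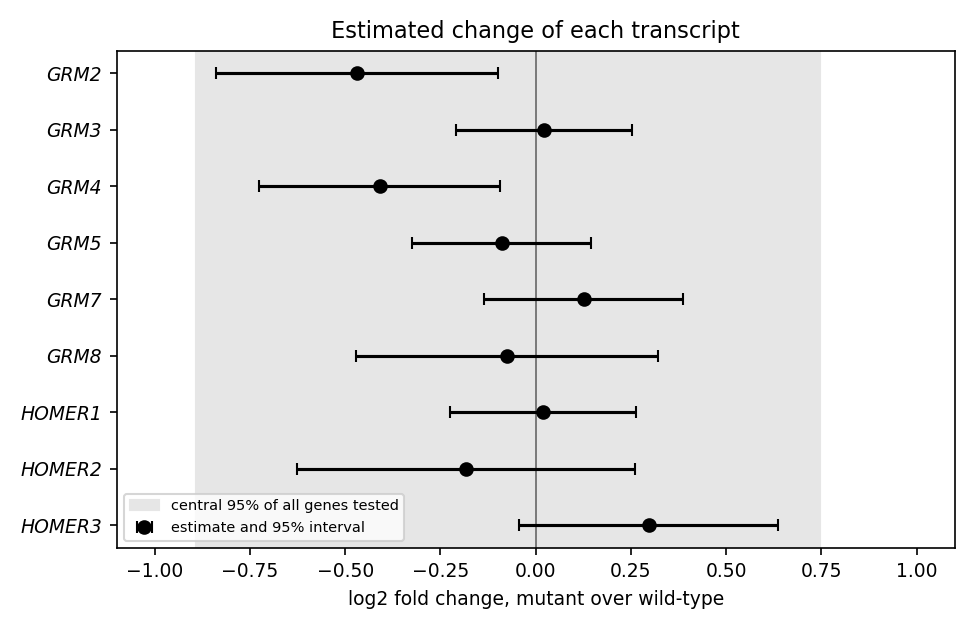
Log2 fold change, mutant over wild-type (horizontal axis), of each gene (rows), with points for the estimate, whiskers for its 95% interval and shading for the central 95% of all genes tested (-0.89 to 0.75). The intervals of GRM2 and GRM4 lie below 0, those of the other 7 genes include 0, and all 9 estimates are inside the shading.

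In group III, GRM4, a presynaptic receptor that is abundant in cerebellar granule cells, was counted 308 and 318 times in mutant libraries and 417 and 382 times in wild-type libraries. The levels were 23.5 and 23.6 CPM in mutant libraries, against 31.5 and 31.1 CPM in wild-type libraries. The groups did not overlap, and neither did the 95% counting intervals of any mutant library (up to 26.3 CPM) and any wild-type library (from 28.1 CPM). Means were 23.6 ± 0.0580 CPM in mutant and 31.3 ± 0.251 CPM in wild-type libraries (SD, n = 2 each). The log2 fold change was -0.41 (SE 0.16, 95% interval -0.73 to -0.09), which corresponds to 0.753 times the wild-type level. It did not pass the test (adjusted p = 0.195 by edgeR), in which the spread of each gene is moderated towards that of other genes of like abundance. With each library left out in turn, the value stayed between -0.415 and -0.401, and adjusted p ranged from 0.32 to 0.507.

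Few transcripts of cerebellum and hindbrain were present beside GRM4. Of 8 such markers, 4 had enough counts to be tested, HOXA2 and HOXB3 were at 0 in all libraries, and EN2 had 0 counts but for 1 in wild-type replicate 2. The summed level of the 4 tested was 10.8 and 12.8 CPM in mutant libraries, against 23.3 and 15.2 CPM in wild-type libraries. Among them CBLN1, a secreted synapse organiser that is not confined to the cerebellum, fell (log2 fold change -1.01, SE 0.26, adjusted p = 0.0333 by edgeR). It did not pass by DESeq2 (adjusted p = 0.135) or limma-voom (0.0672), or without mutant replicate 1 (0.225), mutant replicate 2 (0.271) or wild-type replicate 1 (0.557, with a log2 fold change of -0.50). Thalamic markers summed to 219 and 220 CPM in mutant libraries and 326 and 185 CPM in wild-type libraries. The part of these transcripts in the value of GRM4 was not tested.

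GRM7, a receptor of the presynaptic active zone with low affinity for glutamate, had 69.0 and 70.8 CPM in mutant libraries, against 66.5 and 61.6 CPM in wild-type libraries. The mutant libraries lay just above the wild-type ones. A log2 fold change of 0.13 (SE 0.13, 95% interval -0.14 to 0.39, adjusted p = 0.741 by edgeR) is within the error. GRM8, another presynaptic group III receptor, had 18.4 and 16.7 CPM in mutant libraries, between the 14.6 and 22.5 CPM of the wild-type libraries. Its log2 fold change was -0.075 (SE 0.19, 95% interval -0.47 to 0.32). Without wild-type replicate 2 it was 0.27 and without wild-type replicate 1 it was -0.36, and it passed in neither fit.

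HOMER1, whose long forms crosslink group I receptors to SHANK and whose short, activity-induced form uncouples them, had 124 and 145 CPM in mutant libraries, against 131 and 135 CPM in wild-type libraries. The mutant libraries lay on either side of the wild-type ones. Its log2 fold change was 0.02 (SE 0.12, 95% interval -0.23 to 0.26, adjusted p = 0.974 by edgeR). Counts are per gene, so the long and short forms were not measured apart. An opposite shift of the 2 forms would not appear in this value.

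HOMER2, a long-form scaffold with a coiled coil, was the least counted of the 9, with 161 and 135 counts in mutant libraries and 199 and 126 counts in wild-type libraries. Its levels were 12.3 and 10.0 CPM in mutant libraries, against 15.0 and 10.3 CPM in wild-type libraries, which overlap. Its estimate of -0.18 had the widest interval of the 9 genes on the log2 scale (SE 0.22, 95% interval -0.63 to 0.26). Without wild-type replicate 1 the estimate was 0.12, and without wild-type replicate 2 it was -0.43, and it passed in neither fit.

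HOMER3, the scaffold best known from cerebellar Purkinje cells in rodents, had the largest positive estimate. It was counted 367 and 321 times in mutant libraries and 301 and 239 times in wild-type libraries. The levels were 28.0 and 23.8 CPM in mutant libraries, against 22.7 and 19.5 CPM in wild-type libraries. Both mutant libraries lay above both wild-type libraries. An estimate of 0.30 on the log2 scale (SE 0.17, 95% interval -0.04 to 0.64) did not pass (adjusted p = 0.461 by edgeR). It stayed positive with each library left out, between 0.175 and 0.413. PCP2, a Purkinje cell gene, was counted between 20 and 26 times in each library.

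Taking the HOMER genes as a set, HOMER3 made up 17.1% (95% exact binomial interval 15.5% to 18.7%) and 13.3% (12% to 14.8%) of their counts in mutant replicates 1 and 2. In wild-type replicates 1 and 2 it made up 13.5% (12.1% to 15.0%) and 11.8% (10.5% to 13.3%). The mutant and wild-type shares overlap. HOMER1 held 75.5% and 81.1% in mutant libraries and 77.6% and 81.9% in wild-type libraries. HOMER2 held 7.48% and 5.61% in mutant libraries and 8.92% and 6.24% in wild-type libraries. These shares depend on transcript length, and the intervals cover counting error only. With 2 libraries a group, an exact two-sided permutation test cannot give a p below 0.333, so the shares were not tested.

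Libraries of the same group differed by more than counting error for some of the 9 genes. Of the 18 pairs of replicates (9 genes in 2 groups), 13 had overlapping 95% counting intervals and 5 did not. The 5 were GRM5 and HOMER1 in the mutant group and GRM2, GRM8 and HOMER2 in the wild-type group. The higher replicate had 1.56 times the level of the lower for GRM2, 1.54 times for GRM8 and 1.46 times for HOMER2, all within the wild-type group. For GRM5 and HOMER1 in the mutant group the ratios were 1.13 and 1.17, with mutant replicate 2 higher.

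**Figure D3:**
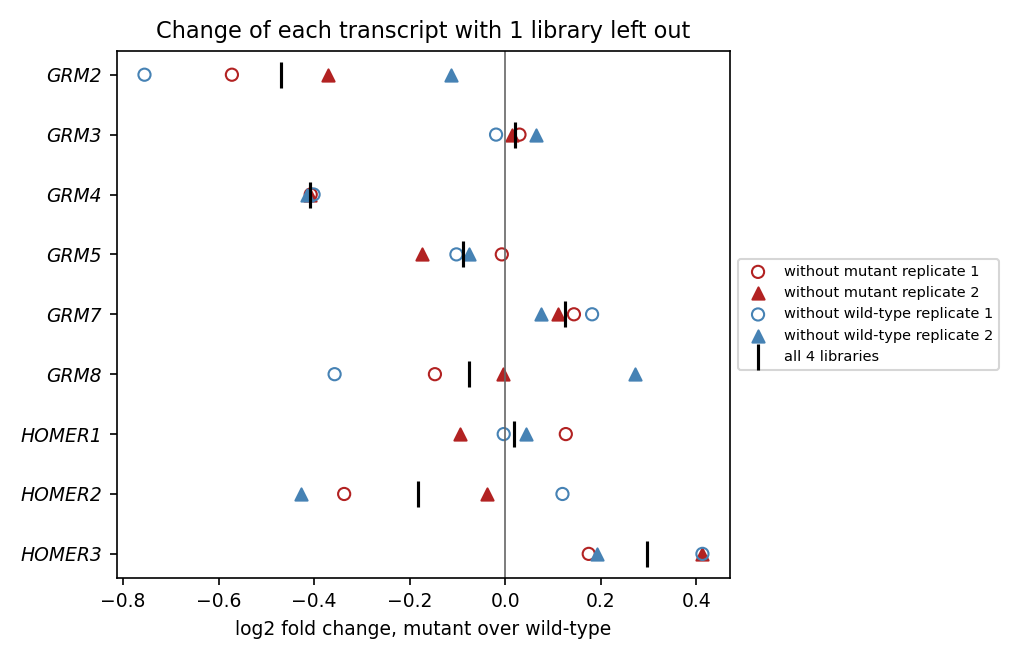
Log2 fold change, mutant over wild-type (horizontal axis), of each gene (rows) when 1 of the 4 libraries was left out, with symbols for the library left out and a bar for all 4 libraries. GRM4 moved least, from -0.415 to -0.401, whereas GRM2 ran from -0.755 to -0.11 and GRM8 from -0.36 to 0.27.

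The genes that act with the receptors were taken as 5 lists. Across the lists, 90 different genes were tested, of which 5 fell and 0 rose (5.56%, beside 2.23% of all genes tested, for lists chosen with earlier results of these data known). The 5 were RGS4, PRKCA, ARC, NPTX1 and PTPN5. For each of them the mutant libraries all lay below the wild-type libraries, which is likely for genes picked by this test. Over all genes tested, the groups did not overlap, in either direction, for 43.1%.

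In the Gq pathway of group I receptors, 2 of 22 genes fell, 0 rose and 20 did not pass, with a median log2 fold change of -0.20. RGS4, which speeds up GTP hydrolysis on Gq and Gi/o subunits and so shortens receptor signalling, had 289 and 290 CPM in mutant libraries, against 462 and 531 CPM in wild-type libraries. The mutant libraries differed by under 1 CPM and lay far below both wild-type libraries. RGS4 fell by 0.78 on the log2 scale (SE 0.12, adjusted p = 4.64e-05 by edgeR), and passed in all 12 alternatives, the 4 with a library left out among them.

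PRKCA, a calcium-dependent protein kinase C, had 137 and 131 CPM in mutant libraries, against 184 and 189 CPM in wild-type libraries (log2 fold change -0.48, SE 0.12, adjusted p = 0.0168 by edgeR). With any 1 library left out it missed the threshold (adjusted p = 0.0512 to 0.103), while the log2 fold change stayed between -0.515 and -0.447. GNAQ and GNA11, the alpha subunits of the pathway, had values of 0.16 and 0.07, PLCB1, the phospholipase C of cortex and hippocampus, -0.22, and ITPR1, a calcium-release channel bound by HOMER, -0.28, and none of these passed.

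Genes of the Gi/o pathway, through which groups II and III act, were not called, with 0 of 19 past the threshold by edgeR or DESeq2. At an unadjusted p under 0.05, 1 was higher and 2 were lower, beside 5.64% and 7.75% of all genes tested. The median was 0.01. The 2 of smallest p were RGS14, at -0.40 (adjusted p = 0.249), and RGS8, at -0.53 (adjusted p = 0.282), both regulators of G protein signalling. RGS8 had 35.0 and 44.3 CPM in mutant libraries and 69.8 and 44.3 CPM in wild-type libraries, so wild-type replicate 1 alone stood above the rest. Without that library RGS8 was at -0.16, and without wild-type replicate 2 it was at -0.81, each against a lone wild-type library. Among the alternatives that kept all 4 libraries, RGS8 passed only with no filter on low counts (adjusted p = 0.014 by edgeR). RGS14 was at -0.59 without wild-type replicate 1 and at -0.17 without wild-type replicate 2, again each against a lone wild-type library. GNAO1, the most typical Gi/o subunit of neurons, had a value of 0.07.

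Binding partners also gave 0 calls by edgeR and DESeq2. Over 15 partners of the receptors the median was 0.01, with 1 higher and 3 lower at an unadjusted p under 0.05. Over 17 partners of HOMER the median was -0.10, with 0 higher and 3 lower. Both lists hold FRMPD4 and AGAP2, and FRMPD4 is counted among the lower genes of each. Of all genes tested, 5.64% were higher and 7.75% lower at that p. NECAB2, a calcium-binding protein that binds GRM5, had 46.0 and 41.1 CPM in mutant libraries, against 65.6 and 52.2 CPM in wild-type libraries (log2 fold change -0.44, SE 0.14, adjusted p = 0.106 by edgeR). It was at -0.26 without wild-type replicate 1 and at -0.59 without wild-type replicate 2, each against a lone wild-type library. TAMALIN, a scaffold of group I receptors, had 15.3 and 13.3 CPM in mutant libraries, against 16.4 and 24.8 CPM in wild-type libraries (-0.52, SE 0.20, adjusted p = 0.193). Like GRM2, it was highest in wild-type replicate 2. Its estimate was -0.79 without wild-type replicate 1 and -0.19 without wild-type replicate 2.

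Of the 17 partners of HOMER, 6 had a positive and 11 a negative estimate, and those of smallest p were SHANK1 and DLGAP3. SHANK1, the scaffold that joins HOMER to the postsynaptic density, had 335 and 376 CPM in mutant libraries, against 389 and 508 CPM in wild-type libraries (log2 fold change -0.34, SE 0.12, adjusted p = 0.18 by edgeR). It was at -0.515 without wild-type replicate 1 and at -0.13 without wild-type replicate 2, each against a lone wild-type library. DLGAP3, which links SHANK to PSD-95 and is abundant in striatum, had 211 and 221 CPM in mutant libraries, against 254 and 286 CPM in wild-type libraries (-0.32, SE 0.12, adjusted p = 0.163). SHANK2 and SHANK3 had values of -0.003 and -0.19.

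**Figure D4:**
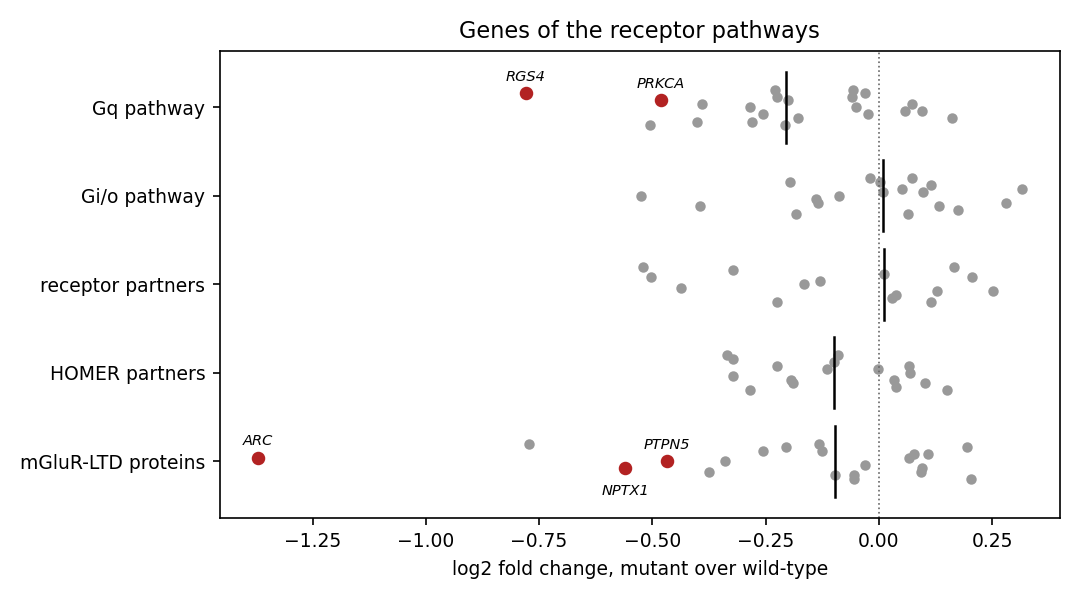
Log2 fold change, mutant over wild-type (horizontal axis), of the genes in the 5 pathway lists (rows), with grey points for genes that did not pass, red points with names for those past an adjusted p of 0.05, and a bar for each median. The 5 named genes lie between -1.37 and -0.47, in the Gq list and in the list of mGluR-dependent long-term depression.

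Among proteins of mGluR-dependent long-term depression, a weakening of synapses that group I receptors trigger, 3 of 21 genes fell, 0 rose and 18 did not pass, with a median of -0.10. ARC, which removes AMPA receptors from synapses and is also an immediate early gene, had 30.4 and 30.9 CPM in mutant libraries, against 59.1 and 99.4 CPM in wild-type libraries. The mutant libraries were alike and the wild-type libraries lay apart. ARC fell by 1.37 on the log2 scale (SE 0.23, adjusted p = 0.0192 by edgeR), and missed the threshold when mutant replicate 1 or 2 was left out (adjusted p = 0.517 and 0.358), with log2 fold changes of -1.36 and -1.38 in those fits.

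PTPN5, the striatum-rich tyrosine phosphatase STEP, which acts in this form of depression, had 104 and 120 CPM in mutant libraries, against 137 and 173 CPM in wild-type libraries (log2 fold change -0.47, SE 0.13, adjusted p = 0.0435 by edgeR). NPTX1, a secreted pentraxin that gathers AMPA receptors, had 90.2 and 109 CPM in mutant libraries, against 126 and 168 CPM in wild-type libraries (-0.56, SE 0.14, adjusted p = 0.0243). For both genes wild-type replicate 2 was the highest library. PTPN5 did not pass by DESeq2 (adjusted p = 0.0851), limma-voom (0.062) or edgeR with robust = FALSE (0.0531). Leaving out wild-type replicate 2 ended the call of both genes, with log2 fold changes of -0.29 for PTPN5 (adjusted p = 0.439) and -0.335 for NPTX1 (adjusted p = 0.318). Among the fits with 1 library left out, PTPN5 and NPTX1 passed only without wild-type replicate 1. That fit sets them against their highest library alone.

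Of the 21 genes tested in this list, 7 had a positive and 14 a negative log2 fold change. At an unadjusted p under 0.05 by edgeR, 0 were higher and 5 lower. Over all genes tested, 5.64% were higher and 7.75% lower at that p. Among genes of the list that did not pass, estimates ran from -0.77 (NPTX2, SE 0.46) to 0.20 (MAPK3, SE 0.12). PIK3CA was at -0.38 and MAP2K1 at -0.255. Several well-known proteins of the list lay nearer 0. MAP1B, a microtubule protein and FMRP target, had 627 and 929 CPM in mutant libraries, against 887 and 731 CPM in wild-type libraries, which overlap. APP had a log2 fold change of -0.13, the endocannabinoid receptor gene CNR1 0.09 and MTOR 0.08. MMP9, a protease, was counted 2 and 0 times in mutant and 2 and 3 times in wild-type libraries, too few to test.

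**Figure D5:**
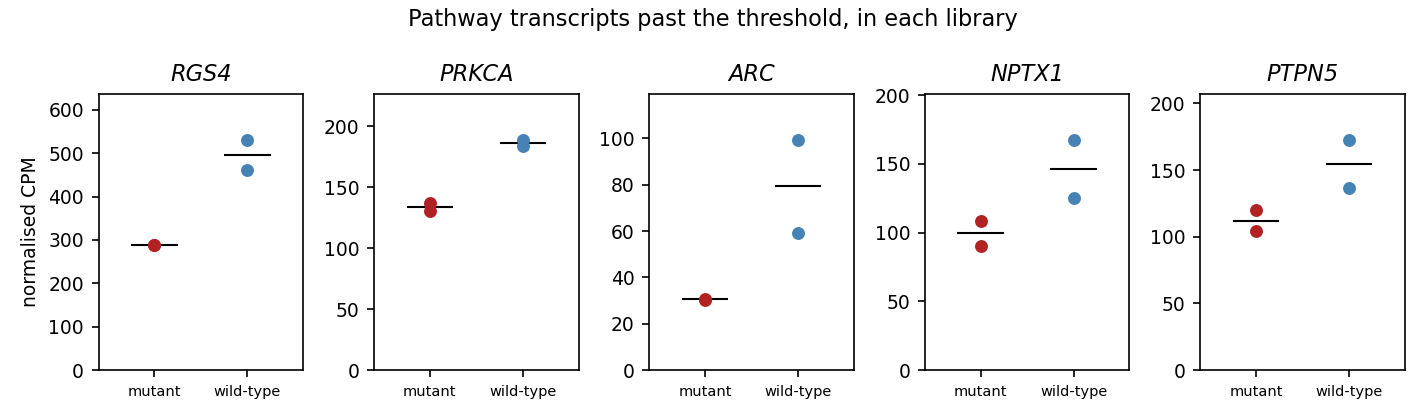
Normalised CPM (vertical axes, each starting at 0) of RGS4, PRKCA, ARC, NPTX1 and PTPN5 in the mutant (left) and wild-type (right) libraries, with each point a library and each bar the group mean. In all 5 panels both mutant points lie below both wild-type points, as is likely for genes picked by the test. The gap is widest relative to the replicate spread for RGS4 and PRKCA.

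Neuron and glia markers moved between the same groups, and their part in the values above was not tested. Of all genes tested, 0.661% rose and 1.57% fell past the threshold. The 5 excitatory neuron markers summed to 2108 and 2177 CPM in mutant and 1871 and 2301 CPM in wild-type libraries (1 rose, median 0.16), and the 7 of striatal projection neurons to 347 and 440 CPM in mutant and 445 and 413 CPM in wild-type libraries (0 called by edgeR or DESeq2, 2 lower at an unadjusted p under 0.05, median 0.04). Markers of immature neurons, which were higher as a sum in mutant libraries, had 4043 and 3978 CPM, against 3367 and 2857 CPM in wild-type libraries (2 of 4 rose). Inhibitory neuron markers summed to 526.5 and 504.6 CPM in mutant and 562 and 601 CPM in wild-type libraries (2 of 5 fell), and the 3 of hippocampal granule cells to 136 and 136 CPM in mutant and 126 and 121 CPM in wild-type libraries (1 rose). All 6 oligodendrocyte markers fell (1283 and 1232 CPM in mutant, 3376 and 3344 CPM in wild-type libraries), as did 1 of 5 markers of their precursors (415 and 439 CPM in mutant, 521 and 554 CPM in wild-type libraries) and 2 of 4 of microglia (59.6 and 43.5 CPM in mutant, 79.1 and 85.5 CPM in wild-type libraries). Endothelial markers summed to 103 and 110 CPM in mutant and 114 and 121 CPM in wild-type libraries, and those of choroid plexus to 116 and 20.6 CPM in mutant and 23.1 and 25.7 CPM in wild-type libraries. By edgeR and DESeq2, 0 of 4 passed in each of these last lists (2 and 1 lower at an unadjusted p under 0.05). At that p, 7.75% of all genes tested were lower.

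The genes whose pattern over the 4 libraries was most like GRM5, among 10262 genes with a symbol and a mean of at least 10 CPM, were SMARCA4, UBA6 and GABBR2. Likeness was measured as the Euclidean distance between log2 CPM values centred on each gene's mean, which was 0.0111, 0.0144 and 0.0146. GABBR2, a subunit of the GABA-B receptor, had 457 and 508 CPM in mutant libraries, against 507 and 518 CPM in wild-type libraries. Nearest to HOMER1 were PTPRO (distance 0.0107), ZMIZ1 and CACNA2D1, and nearest to GRM3 were CSNK1D (distance 0.00774), BCL2L13 and SH3KBP1. With 4 libraries and so many genes, close neighbours are common, and nothing further was read from them.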

How the data were processed

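The authors deposited raw counts per gene, whole numbers that were not normalized, for 2 FMR1 mutant and 2 wild-type libraries. Per the labels' protocols, TRIzol was used for extraction and DNase I to remove DNA, and directional libraries were made from poly(A) RNA. Trimmomatic 0.38 and STAR 2.7.10a are named in the submitters' processing notes. The sources used here do not say how reads were counted, on which build and annotation or with which strand setting, so reads shared with similar or antisense genes may be split in ways not known. Columns were matched to libraries by the names in the labels. Replicates differed by more than sampling noise (chi-square per degree of freedom 6.9 in mutant and 7.28 in wild-type libraries).

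Counts were fitted in R 4.3.3 with edgeR 4.0.16 (filterByExpr at a minimum count of 10, TMM, quasi-likelihood test with robust = TRUE). Residual degrees of freedom were 2, prior ones 31.6 (median), and the coefficient of biological variation 11.3%. The SE is the size of the log2 fold change divided by the square root of F. Adjusted p-values are from this test with Benjamini-Hochberg adjustment over all genes tested unless another tool is named. Counting intervals are exact Poisson intervals and cover counting error only. On simulated counts (mutant over wild-type, 16691 genes), the test called 25.5% of genes given a log2 change of 0.5, 64.9% at a change of 1 and 94.3% at a change of 2.

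Alternatives were RLE and upper-quartile scaling, DESeq2 1.42.0 and limma 3.58.1 (voom) on the same genes, robust = FALSE, no filter on low counts, a filter at a mean of 1 CPM, a block for the replicate number, and each library left out on the same genes, where a lone library is assumed to vary like the others. The members, the 5 pathway lists and the 13 marker lists were chosen with earlier results of these data known, and none was tested as a set. Genes named are all 9 members, the called genes of a list up to 6 by smallest p, or else the 2 of smallest p, and the 3 nearest patterns of GRM3, GRM5 and HOMER1. Called marker genes were given as counts, except SLC1A2, CLU and CBLN1, which were named with their values. Other pathway genes named (such as GNAQ, MAP1B and SHANK3) were chosen after values were seen, for their known role, their value or their place in more than 1 list. A gene of these lists that is not reported here by name stays in all tests and counts.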

Additional observations from a re-analysis of the deposited data

How the results depend on the processing

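The count of changed genes over the whole table, 378, was 251 by DESeq2, 633 with no low-count filter, 624 at an adjusted p of 0.1, and between 163 and 562 with 1 library left out. Of the 9 receptors and scaffolds, 0 were called, as in the main fit, except with no low-count filter (1, GRM2, log2 fold change -0.47) and without wild-type replicate 1 (1, GRM2, -0.755), a range of 0 to 1 with 1 library left out. In 108 comparisons of their log2 fold changes with the main value (9 genes by 12 alternatives), 101 kept direction and call, 2 gained a call and 5 turned direction, all 5 with 1 library left out: GRM3 was -0.019 and HOMER2 0.12 without wild-type replicate 1, GRM8 0.27 without wild-type replicate 2, and HOMER1 -0.095 without mutant replicate 2 and -0.003 without wild-type replicate 1. With 1 library left out, values ran from -0.755 to -0.11 for GRM2, -0.019 to 0.064 for GRM3, -0.36 to 0.27 for GRM8, -0.095 to 0.13 for HOMER1 and -0.43 to 0.12 for HOMER2. FMR1 ran from -0.022 (without mutant replicate 2) to 0.528 (without mutant replicate 1). The cause of these changes was not tested. With 1 library left out, a lone library stands for its group. Calls in those fits rest on the spread of the other group and of other genes.

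Counts of called genes in the pathway lists ran, with 1 library left out, from 1 to 2 (Gq), 0 to 1 (Gi/o), 0 to 2 (receptor partners), 0 to 1 (HOMER partners) and 0 to 3 (long-term depression). With no low-count filter, 1 was called in the Gi/o list and 1 among receptor partners. Marker counts ran from 0 to 2 for oligodendrocyte precursors, inhibitory neurons and microglia, 0 to 1 for excitatory neurons, striatal neurons, hippocampal granule cells and cerebellum, and 0 to 3 for thalamus and immature neurons. Precursors had 2 calls with no low-count filter, with a filter at a mean of 1 CPM or at an adjusted p of 0.1. Excitatory neurons had 0 by limma-voom, 3 with no filter and 2 at an adjusted p of 0.1, where astrocytes had 4. DESeq2 gave 1 for inhibitory neurons, 1 for microglia and 0 for cerebellum, as did limma-voom for cerebellum (0). With robust = FALSE, thalamus and choroid plexus had 1 each, and thalamus had 1 with no filter.

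With the replicate number as a block, 493 genes were called over the table, 0 of the 9 among them (GRM2 -0.44, adjusted p = 0.198 by edgeR), 1 among receptor partners and 2 each among precursors and excitatory neurons. Deviations of same-numbered libraries correlated at 0.0275 across genes, so the numbers were not taken to pair the samples. With 2 libraries a group, a change of 0.5 on the log2 scale would often be missed, and the least counted genes, HOMER2 and GRM8, have the widest log2 intervals.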
